A study of Mus musculus with 35 samples.

Results

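Tbx4, Sox17, Klf2, Aqp1, Kcnk3, Kcna5, Abcc8, Atp13a3, Eif2ak4 and Ggcx are genes whose human counterparts have been linked to risk of pulmonary arterial hypertension and that do not belong to the bone morphogenetic protein (BMP) receptor pathway. They were chosen by symbol, with earlier results of these data known, and are 10 of the 54532 genes in the count table. RNA was sequenced from whole lungs of adult male and female mice, at least 3 months old. Control mice were of the B6/129SJ2 background, Cav1-KO mice carried the Cav1(tm1Mls/)J knockout of caveolin-1, and Cav1-RC mice carried the same knockout together with Cav1 expressed again in endothelial cells. Each genotype was kept in normoxia or in hypoxia (10% oxygen for 6 weeks). The 34 libraries used here fell into 12 groups by sex, genotype and oxygen, with 3 libraries a group, except that the normoxia females of Cav1-KO and of Cav1-RC had 2 each. Poly-A RNA was made into directional libraries, so a value is a gene's share of the poly-A RNA sequenced from the whole lung, not an amount per lung. A lower value from fewer cells of a type and one from less RNA per cell cannot be told apart.

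In pulmonary arterial hypertension the small arteries of the lung narrow and are remodeled, and inherited risk falls largely on genes of the vessel wall. Tbx4, Sox17 and Klf2 encode transcription factors of lung mesenchyme, of arterial endothelium and of endothelium under flow. Aqp1 encodes a water channel of endothelial cells and red cells. Kcnk3 (TASK-1) and Kcna5 (Kv1.5) encode potassium channels that hold the membrane potential of vascular muscle, and Abcc8 (SUR1) the regulatory subunit of ATP-sensitive potassium channels. Atp13a3 encodes a polyamine transporter, Eif2ak4 (GCN2) a kinase that senses amino acid shortage and is the gene of pulmonary veno-occlusive disease, and Ggcx the vitamin K dependent carboxylase. Caveolin-1 forms the caveolae of endothelial and other cells, and CAV1 is itself a risk gene of this disease.

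Libraries held 12425535 to 33343006 counts assigned to genes, with a median of 18015172.5. Levels between groups are given as CPM, counts scaled to the library size with edgeR's TMM factors, and differences as log2 fold changes with their standard error (SE). Cav1 was at 989 to 1356 CPM in Control, 1.61 to 3.997 CPM in Cav1-KO and 1.48 to 6.56 CPM in Cav1-RC, so its counts marked the knockout but did not separate Cav1-RC from Cav1-KO lungs. The sex genes of 3 male-labelled libraries went against the label, and female Cav1-KO hypoxia replicate 2 held Y-linked genes at 17.5 CPM, against at most 2.55 CPM in the other female libraries. By animal number, 12 of the 34 mice also appear in the study's source data for its western blots. These listed animals were all 6 of Cav1-KO hypoxia, all 3 of male Control hypoxia and, among females, replicate 1 of the Control groups at either oxygen level and of Cav1-RC in normoxia. Listing therefore coincides with oxygen in Cav1-KO lungs and with genotype between Cav1-RC and Cav1-KO lungs in hypoxia, and there its part in a difference cannot be told apart from theirs. Where a term for listing, in 1 fit over all 34 libraries, moved a call made with both sexes together, its value is given with the result.

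On FPKM, which is scaled by transcript length and so allows genes to be set side by side, Aqp1 was the most abundant of the 10, at 313 ± 128 FPKM (SD, n = 34). Klf2 followed at 174 ± 56.8 FPKM, with ranges that overlapped those of Aqp1. Sox17 at 30.8 ± 14.5, Atp13a3 at 28.1 ± 5.62 and Tbx4 at 26.0 ± 5.45 FPKM lay within their spread of one another. Below them came Ggcx at 16.9 ± 2.30, Kcnk3 at 11.4 ± 3.36 and Eif2ak4 at 3.93 ± 0.437 FPKM. Kcna5 at 0.294 ± 0.141 and Abcc8 at 0.274 ± 0.141 FPKM did not differ beyond their spread and rested on 2 to 32 and 8 to 78 counts a library, which makes single values of these genes imprecise. Eif2ak4 varied least, with a highest library 1.57 times the lowest in CPM, against 4.36 times for Klf2 and 10.6 times for Abcc8.

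**Figure D1:**
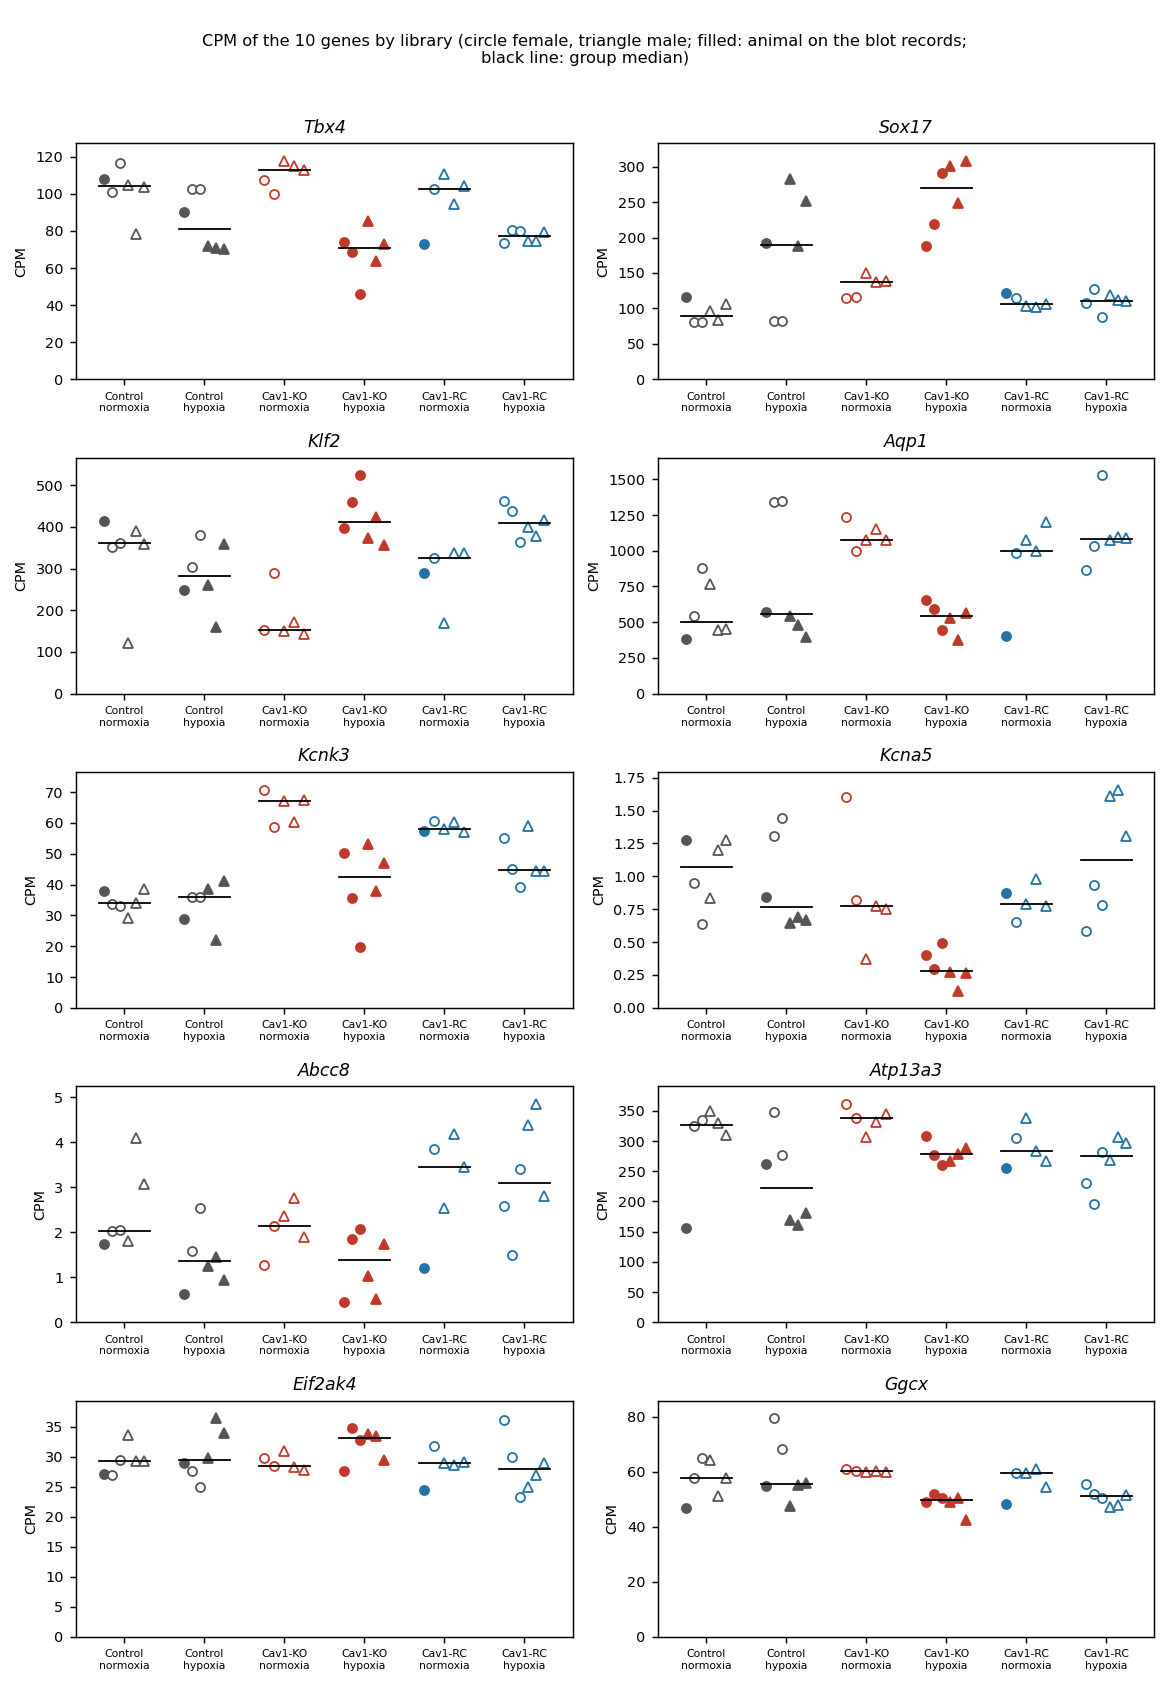
CPM of each of the 10 genes in every library, by genotype and oxygen level, with 1 point per library, the sexes and the animals in the blot source data marked and each vertical axis starting at 0. Kcnk3 in normoxia lay at 58.5 to 70.8 CPM in Cav1-KO and at 29.0 to 38.7 CPM in Control lungs, while Eif2ak4 lay at about one level in all groups.

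Promoter sequences are shown for Klf2, Ggcx and Aqp1, 3 genes whose levels differed between oxygen levels in the Cav1-KO lungs and whose starts RefSeq lists (GRCm38.p6, 250 bases before to 20 after the start). Of the 10 genes, 6 had an entry. Each window was searched on both strands for ACGTG, 1 form of the core of the hypoxia response element. The other form, GCGTG, was not searched. A MEF2-type site of the kind known in the Klf2 promoter was searched as well, and its letters are those in capitals in the Klf2 window. Capitals mark the matches.
Klf2, chr8:72318812-72319081, plus strand: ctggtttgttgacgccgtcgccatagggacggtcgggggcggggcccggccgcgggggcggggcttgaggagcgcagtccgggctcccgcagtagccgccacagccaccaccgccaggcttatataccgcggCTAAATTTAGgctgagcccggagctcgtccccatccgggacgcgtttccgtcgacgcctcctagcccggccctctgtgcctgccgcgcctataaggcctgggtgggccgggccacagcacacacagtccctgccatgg
Ggcx, chr6:72414058-72414327, plus strand: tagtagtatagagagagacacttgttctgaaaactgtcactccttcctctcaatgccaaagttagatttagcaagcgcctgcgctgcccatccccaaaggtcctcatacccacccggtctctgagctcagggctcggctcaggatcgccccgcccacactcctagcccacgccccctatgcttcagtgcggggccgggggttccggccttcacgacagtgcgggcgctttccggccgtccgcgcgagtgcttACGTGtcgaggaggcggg
Aqp1, chr6:55336049-55336318, plus strand: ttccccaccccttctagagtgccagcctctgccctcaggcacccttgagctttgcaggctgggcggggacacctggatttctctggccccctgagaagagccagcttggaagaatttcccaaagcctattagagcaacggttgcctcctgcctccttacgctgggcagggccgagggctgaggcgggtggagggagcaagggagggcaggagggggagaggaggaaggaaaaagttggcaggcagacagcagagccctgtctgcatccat
The MEF2-type letters stood 118 bases before the Klf2 start and are in 0.0396% of 32851 promoter windows of this length. They were chosen as a site known in this promoter, so the match was set beforehand and its rarity is no test. ACGTG was in 1 of the 3 windows, that of Ggcx, and is in 17.9% of all windows. The windows of Tbx4, Kcna5 and Eif2ak4 held neither ACGTG nor the MEF2-type letters.

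In normoxia, 3 of the 10 genes were higher in Cav1-KO than in Control lungs and none was lower, with the sexes averaged in 1 fit. The 3 were the water channel Aqp1, the potassium channel Kcnk3 and the endothelial factor Sox17. Of the 18540 genes tested, 13.2% were called at an adjusted p under 0.05 (edgeR quasi-likelihood test, Benjamini-Hochberg adjustment, as everywhere here), with 5.16% of the genes tested higher. The median log2 fold change was 0.088 over the 10 genes and -0.027 over all genes tested.

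Kcnk3 (ENSMUSG00000049265, chr5:30588170-30625271, plus strand) was at 70.8 and 58.5 CPM in the 2 female and at 67.1, 60.3 and 67.3 CPM in the 3 male Cav1-KO normoxia libraries. In Control normoxia it ranged from 29.0 to 38.7 CPM with a median of 33.9 CPM. No Control library reached the lowest Cav1-KO library, and the log2 fold change was 0.91 (SE 0.0994, adjusted p = 0.000344). Gm9899 overlaps 450 bases of Kcnk3 on the other strand and held a median of 49 counts against 863.5 for Kcnk3, and reads in the overlap cannot be told apart, since the default settings used for counting take no account of strand. Aqp1 (ENSMUSG00000004655, chr6:55336432-55348555, plus strand) was at 1233 and 997 CPM in female and at 1076, 1150 and 1072 CPM in male Cav1-KO normoxia libraries. Control normoxia libraries held 382.5 to 878 CPM, with a median of 498 CPM. Again the groups did not overlap, and Aqp1 rose by 0.94 (SE 0.215, adjusted p = 0.0168). Aqp1 lies 38.0 Mb from Cav1 on chromosome 6, and strain sequence linked to the knockout allele was not tested. Without female Cav1-KO normoxia replicate 1 the adjusted p of Aqp1 was 0.082.

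Sox17 (ENSMUSG00000025902, chr1:4490931-4497354, minus strand) was at 115 and 116 CPM in female and at 149.9, 137 and 139 CPM in male Cav1-KO normoxia libraries. The Control range of 80.7 to 117 CPM, median 89.7 CPM, overlapped it at the listed female Control animal, which was the highest Control library. The log2 fold change of 0.44 (SE 0.114, adjusted p = 0.0278) was lost when any of 7 of the 11 libraries was left out. Among unlisted animals the 3 calls stood, at 0.95 for Kcnk3, 0.82 for Aqp1 and 0.55 for Sox17, with adjusted p of 0.000155, 0.0136 and 0.00103. The endothelial marker list (12 of 12 genes in the table, none at 0 in any library) summed to 4980 to 5284 CPM in Cav1-KO and 3711 to 5291 CPM in Control normoxia, with overlap. Other lists, each complete in the table with no gene at 0 in any library, did not overlap between these groups. The smooth muscle list summed to 454 to 541 CPM in Cav1-KO and 560.3 to 985 CPM in Control normoxia, the lung epithelial list to 32430 to 36520 and 40650 to 89510 CPM, and the fibroblast list to 2885 to 3503 and 1972 to 2737 CPM. The part of these lists in the differences was not tested.

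Klf2 (ENSMUSG00000055148, chr8:72319033-72321656, plus strand) had the largest uncalled difference of this comparison. It was at 151.5 and 288 CPM in female and at 149, 173 and 144 CPM in male Cav1-KO normoxia libraries, against a Control range of 120 to 413.3 CPM with a median of 360 CPM. The lowest Control library, male replicate 1, lay below every Cav1-KO library, and the log2 fold change was -0.84 (SE 0.281, adjusted p = 0.0725). It was called with the listing term, at -0.84 (adjusted p = 0.0186).

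Between Cav1-RC and Cav1-KO lungs in normoxia, 0 of the 10 genes were called by edgeR, against 9.38% of all genes tested. That number moved when any of 4 of the 10 libraries was left out, among them females whose group then held 1 library. With all 10 libraries there were 3 at an unadjusted p under 0.05, against 24.4% of all genes, and DESeq2 called 2. Klf2 was at 288 and 326.1 CPM in female and at 169, 337 and 338 CPM in male Cav1-RC normoxia libraries, 4 of the 5 at or above the highest Cav1-KO library at 288 CPM. Its log2 fold change was 0.67 (SE 0.224, adjusted p = 0.0948). Sox17 was at 121.5, 114, 103, 102 and 106 CPM in the same order, with a log2 fold change of -0.21 (SE 0.0652, adjusted p = 0.0694) and overlapping groups. Among unlisted animals Sox17 fell by 0.24 (adjusted p = 0.0149) and Abcc8 rose by 0.86 (adjusted p = 0.0375), with 1 female Cav1-RC library left, which was assumed to vary like the other groups. Without the listed female the highest Cav1-RC library of Sox17, at 114 CPM, lay just below the lowest Cav1-KO library, at 115 CPM.

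Against Control in normoxia, Cav1-RC lungs differed in 1 of the 10 genes, Kcnk3, where 3.33% of genes tested were called. Kcnk3 was at 57.4 and 60.7 CPM in female and at 58.0, 60.3 and 56.9 CPM in male Cav1-RC normoxia libraries, all above the highest Control library at 38.7 CPM. The log2 fold change was 0.77 (SE 0.0973, adjusted p = 0.00122). Both knockout-carrying genotypes were set against the same 6 Control libraries, and between themselves Kcnk3 differed by -0.15 (SE 0.0753, adjusted p = 0.27). Aqp1 was at 405.5 CPM in the listed Cav1-RC female and at 986, 1075, 995.5 and 1201 CPM in the other 4, above all Control libraries. Its log2 fold change was 0.60 (SE 0.279, adjusted p = 0.407), and with the listing term 0.65 (adjusted p = 0.00759).

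Hypoxia against normoxia changed 8 of the 10 genes in Cav1-KO lungs, where 61.7% of all 18487 genes tested were called, and 0 of 10 in Control (1.44% of genes) and 0 of 10 in Cav1-RC lungs (2.17% of genes). Sox17 and Klf2 rose in Cav1-KO hypoxia, as did 31.5% of genes. Tbx4, Aqp1, Kcnk3, Kcna5, Atp13a3 and Ggcx fell, as did 30.2% of genes. All 6 hypoxia libraries of this comparison came from listed animals and none of the 5 normoxia libraries did, so oxygen and listing cannot be told apart in it. With a term for listing in 1 fit over all 34 libraries, 0 of the 10 and 1.22% of all genes were called. The cell type marker lists also moved in this comparison. The fibroblast list summed to 1260 to 2251 CPM in Cav1-KO hypoxia and 2885 to 3503 CPM in normoxia, the lung epithelial list to 59110 to 75780 and 32430 to 36520 CPM, the cardiac list to 249 to 800.4 and 851.5 to 1178 CPM and the neuroendocrine list to 6.66 to 13.1 and 2.60 to 4.91 CPM, each without overlap, and their part in the differences of the 10 genes was not tested. With the listing term Klf2 stood at 1.31 (SE 0.376, adjusted p = 0.0807), Kcna5 at -1.65 (SE 0.425, adjusted p = 0.051), Sox17 at 0.33 and Aqp1 at 0.03. In Control and in Cav1-RC lungs 4 and 3 of the 10 passed an unadjusted p under 0.05, as did 13.6% and 15.2% of all genes, and DESeq2 called 1 and 0. With the listing term 3 were called in Control, Aqp1 at 0.86, Sox17 at 0.49 and Ggcx at 0.27 (adjusted p = 0.00172, 0.023 and 0.0162), and 2 in Cav1-RC lungs, Tbx4 at -0.36 and Ggcx at -0.25 (adjusted p = 0.0301 and 0.0345). With that term 18.6% and 5.95% of all genes were called in these lungs.

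Klf2 ranged from 357 to 524 CPM with a median of 411 CPM in Cav1-KO hypoxia, against 144 to 288 CPM in normoxia. Every hypoxia library lay above every normoxia library, and Klf2 rose by 1.16 (SE 0.152, adjusted p = 4.57e-05). In Cav1-RC lungs it ranged from 363 to 463 CPM in hypoxia, median 408.5 CPM, and again did not overlap the normoxia libraries at 169 to 338 CPM. That difference was 0.47 (SE 0.175, adjusted p = 0.226). In Control it was -0.22 (SE 0.275, adjusted p = 0.819).

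Sox17 ranged from 188 to 308 CPM, median 270.2 CPM, in Cav1-KO hypoxia and from 115 to 149.9 CPM in normoxia, without overlap, and rose by 0.99 (SE 0.112, adjusted p = 1.54e-05). In Control hypoxia the 2 unlisted females held 82.2 and 82.3 CPM, while the 4 listed animals held 188 to 282 CPM. The unlisted hypoxia females thus lay inside the Control normoxia range of 80.7 to 117 CPM. In Cav1-RC lungs, where no hypoxia animal was listed, Sox17 ranged from 87.5 to 127 CPM in hypoxia and differed by -0.02 (SE 0.101, adjusted p = 0.971).

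Tbx4 (ENSMUSG00000000094, chr11:85886422-85916097, plus strand) was at 108 and 100.1 CPM in female and at 118, 115 and 113 CPM in male Cav1-KO normoxia libraries. In Cav1-KO hypoxia it ranged from 45.9 to 85.5 CPM with a median of 70.7 CPM, below all of them, and fell by 0.71 (SE 0.109, adjusted p = 0.000142). The difference was -0.29 in Control (SE 0.0978, adjusted p = 0.198) and -0.32 in Cav1-RC lungs (SE 0.101, adjusted p = 0.147), which held 73.5 to 80.4 CPM in hypoxia and 73.1 to 111 CPM in normoxia. Among unlisted Cav1-RC animals Tbx4 fell by 0.41 (SE 0.0808, adjusted p = 0.0271). The Cav1-KO difference was -0.49 with the listing term (adjusted p = 0.102).

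Aqp1 ranged from 377 to 653.5 CPM, median 545 CPM, in Cav1-KO hypoxia, against 997 to 1233 CPM in normoxia. No library of one oxygen level entered the range of the other, and Aqp1 fell by 1.10 (SE 0.119, adjusted p = 1.07e-05). Aqp1 is also carried by red cells, and the erythroid list (9 of 10 genes in the table) summed to 1605 to 21280 CPM in Cav1-KO hypoxia and 1362 to 2118 CPM in normoxia, with overlap, and its part in the Aqp1 difference was not tested. Epb42, a protein of the red cell membrane, was at 0 in 2 libraries. Control hypoxia split by listing for Aqp1 as it did for Sox17, with 1342 and 1349 CPM in the 2 unlisted females and 398 to 572 CPM in the 4 listed animals.

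Among the potassium channels, Kcnk3 ranged from 19.8 to 53.1 CPM in Cav1-KO hypoxia, median 42.4 CPM, below all normoxia libraries, and fell by 0.72 (SE 0.179, adjusted p = 0.00421), against -0.64 with the listing term (adjusted p = 0.227). Kcna5 (ENSMUSG00000045534, chr6:126532551-126535412, minus strand) was at 1.61 and 0.824 CPM in female and at 0.373, 0.774 and 0.755 CPM in male Cav1-KO normoxia libraries. In hypoxia it ranged from 0.127 to 0.494 CPM, on 2 to 11 counts a library. Male normoxia replicate 1 lay inside the hypoxia range, and Kcna5 fell by 1.57 (SE 0.340, adjusted p = 0.00177). Here 4 of 5 normoxia and 0 of 6 hypoxia libraries reached the minimum of the filter, and without it the adjusted p was 0.0011. In the males alone it did not pass the filter on low counts and was not tested. Abcc8 (ENSMUSG00000040136, chr7:46104523-46180033, minus strand) was not called with both sexes, at -0.65 (SE 0.382, adjusted p = 0.161), and fell in males alone by 1.07 (SE 0.400, adjusted p = 0.0462).

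Ggcx (ENSMUSG00000053460, chr6:72414308-72430712, plus strand) had the narrowest group of all in Cav1-KO normoxia, at 61.0 and 60.2 CPM in female and 60.0, 60.2 and 59.9 CPM in male libraries. In hypoxia it ranged from 42.3 to 52.1 CPM, median 49.8 CPM, and fell by 0.33 (SE 0.0607, adjusted p = 0.000553) without overlap. The direction turned with the listing term, to 0.069 (adjusted p = 0.825). Atp13a3 (ENSMUSG00000022533, chr16:30312423-30405975, minus strand) was at 361 and 338.5 CPM in female and 306, 331.1 and 344 CPM in male normoxia libraries. Its hypoxia range of 260.3 to 309 CPM, median 278 CPM, overlapped them at 1 normoxia library, and it fell by 0.30 (SE 0.0634, adjusted p = 0.00148). This direction also turned with the listing term, to 0.26 (adjusted p = 0.511). Eif2ak4 (ENSMUSG00000005102, chr2:118388618-118475234, plus strand) was at 29.7, 28.4, 31.0, 28.2 and 27.8 CPM in Cav1-KO normoxia and at 27.7 to 34.8 CPM in hypoxia, a difference of 0.11 (SE 0.0787, adjusted p = 0.232). Eif2ak4 was not called in any comparison reported here.

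**Figure D2:**
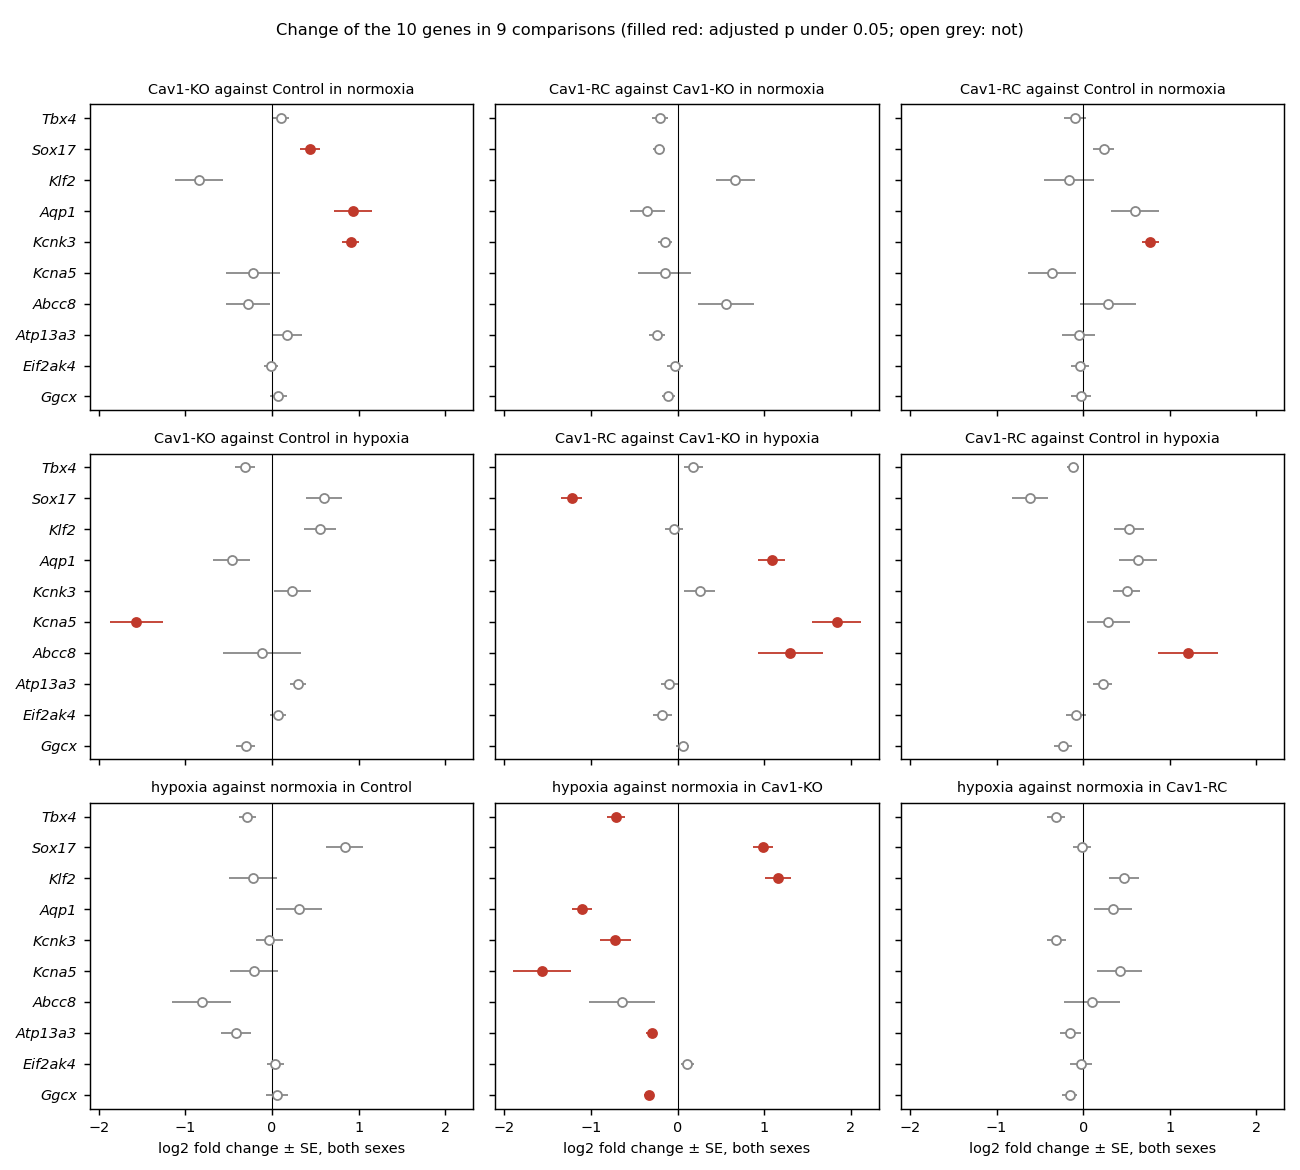
Log2 fold changes of the 10 genes in the 9 comparisons with the sexes averaged, as points with bars of 1 standard error, filled where the adjusted p was under 0.05. The 8 filled points of hypoxia against normoxia in Cav1-KO lungs lie between -1.57 for Kcna5 and 1.16 for Klf2, and the Control and Cav1-RC panels of that contrast hold no filled point.

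In hypoxia, Cav1-KO differed from Control in 1 of the 10 genes, Kcna5, where 14.7% of 18742 genes tested were called. Kcna5 ranged from 0.644 to 1.45 CPM in Control hypoxia, median 0.765 CPM, and every one of these libraries lay above the highest Cav1-KO hypoxia library at 0.494 CPM. The log2 fold change was -1.57 (SE 0.308, adjusted p = 0.0111). Kcna5 passed the filter on low counts through Control, where 6 of 6 libraries reached its minimum against 1 of 6 in Cav1-KO, and without a filter the adjusted p was 0.0149. The smooth muscle list summed to 469 to 811 CPM in Cav1-KO and 824 to 1135 CPM in Control hypoxia, without overlap, and 6 of 8 erythroid genes tested were higher in Cav1-KO (median 3.08), and the part of either in the Kcna5 difference was not tested. Atp13a3 at 0.30 and Klf2 at 0.55 came closest among the rest (adjusted p = 0.0508 and 0.0588). With the listing term 3 were called, Kcna5 at -1.59, Atp13a3 at 0.49 and Sox17 at 0.43 (adjusted p = 0.000658, 0.00326 and 0.0248), with 16.1% of all genes. Leaving out the listed female Control hypoxia replicate 1 raised the number called to 7 of 10, and the share of all genes to 43.3%, and leaving out female Control hypoxia replicate 2 or male Control hypoxia replicate 3 raised it to 2, where the share of all genes fell to 4.94% and 8.13%.

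Between Cav1-RC and Cav1-KO lungs in hypoxia, 4 of the 10 genes were called, with 52.6% of all genes tested called. Aqp1, Kcna5 and Abcc8 were higher (26.4% of genes) and Sox17 was lower (26.2% of genes) in Cav1-RC. Cav1-KO hypoxia animals were all listed and Cav1-RC hypoxia animals were all unlisted, so genotype and listing cannot be told apart here either. Marker lists moved in this comparison too, with 5 of 8 leukocyte genes higher (median 1.399), 4 of 8 erythroid genes lower (median -1.58), 5 of 10 cardiac genes higher and 1 lower (median 0.75), and 3 of 12 endothelial genes higher and 5 lower (median -0.21) in Cav1-RC. Their part in the differences of the 4 genes was not tested.

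Aqp1 ranged from 863 to 1529 CPM in Cav1-RC hypoxia, median 1080.0 CPM, above every Cav1-KO hypoxia library, and rose by 1.09 (SE 0.154, adjusted p = 0.000123). With the listing term this difference was -0.05. Sox17 ranged from 87.5 to 127 CPM in Cav1-RC hypoxia, below the Cav1-KO minimum of 188 CPM, and fell by 1.23 (SE 0.125, adjusted p = 1.58e-05), against -0.57 with the listing term (adjusted p = 0.0705). Kcna5 ranged from 0.588 to 1.66 CPM, median 1.12 CPM, above all Cav1-KO libraries, and rose by 1.84 (SE 0.285, adjusted p = 0.000222). It passed the filter through Cav1-RC, with 6 of 6 libraries at its minimum against 0 of 6 in Cav1-KO, and without a filter the adjusted p was 0.000159. Of these 4 genes Kcna5 was also called with the listing term, at 1.92 (SE 0.415, adjusted p = 0.00651), and with that term Atp13a3 and Ggcx were called lower, at -0.65 and -0.35 (adjusted p = 0.0163 and 0.0414), the latter a turned direction, where 7.98% of all genes were called.

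Abcc8 ranged from 1.5 to 4.85 CPM in Cav1-RC hypoxia, median 3.10 CPM, against 0.459 to 2.07 CPM in Cav1-KO hypoxia, with overlap, and rose by 1.30 (SE 0.374, adjusted p = 0.0109), against 0.18 with the listing term (adjusted p = 0.88). It was also the 1 gene of the 10 called between Cav1-RC and Control in hypoxia, where 9.06% of genes tested were called. Control hypoxia held 0.630 to 2.55 CPM, median 1.35 CPM, which overlapped Cav1-RC, and the log2 fold change was 1.21 (SE 0.344, adjusted p = 0.0488). That call was lost when any of 9 of the 12 libraries was left out, and with the listing term, which gave 0.52 for Abcc8 (adjusted p = 0.477) and called Ggcx lower, at -0.51 (adjusted p = 0.00054). The cardiac muscle list (10 of 10 genes in the table, Nppa at 0 in 5 libraries) summed to 662 to 1337 CPM in Cav1-RC hypoxia, 249 to 800.4 CPM in Cav1-KO hypoxia and 190.5 to 1211 CPM in Control hypoxia, and against Control 5 of its 10 genes were higher in Cav1-RC and 1 was lower (median 1.09). The smooth muscle list summed to 437 to 624 CPM in Cav1-RC and 824 to 1135 CPM in Control hypoxia, without overlap, with 6 of 8 genes called lower. The part of these lists in the Abcc8 differences was not tested.

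The genotype difference depended on oxygen for 4 of the 10 genes between Cav1-KO and Control (20.2% of genes tested were called) and for 4 of 10 between Cav1-RC and Cav1-KO (42.8% called). Each value here is the log2 genotype difference in hypoxia minus that in normoxia. For Aqp1 it was -1.42 for Cav1-KO against Control (SE 0.321, adjusted p = 0.00932) and 1.44 for Cav1-RC against Cav1-KO (SE 0.269, adjusted p = 0.000595). For Kcna5 these values were -1.36 (adjusted p = 0.0317) and 1.99 (adjusted p = 0.000978). For Klf2 they were 1.37 (adjusted p = 0.0143) and -0.70 (adjusted p = 0.0267). Sox17 was called between Cav1-RC and Cav1-KO alone, at -1.0 (adjusted p = 0.000193), and Tbx4 between Cav1-KO and Control alone, at -0.43, with an adjusted p that rounds to 0.05. Both contrasts use the same Cav1-KO libraries, of which all hypoxia and no normoxia animals were listed. With the listing term 2 of the 8 calls stood, both between Cav1-KO and Control, at -0.83 for Aqp1 (adjusted p = 0.0458) and 1.45 for Klf2 (adjusted p = 0.027), with 4.34% of all genes called. Kcna5 stood at -1.41 and Tbx4 at -0.32 there (adjusted p = 0.0533 and 0.191). Between Cav1-RC and Cav1-KO that term gave 0.1 for Aqp1, 2.1 for Kcna5, -0.87 for Klf2 and -0.19 for Sox17 (adjusted p = 0.953, 0.124, 0.489 and 0.841). The Tbx4 call was lost when any of 18 of the 23 libraries was left out, and those of Klf2 and Kcna5 between Cav1-KO and Control were lost without 1 and without any of 6 libraries.

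With the sexes apart, 9 of 90 tests were called in females and 27 of 89 in males, against 6.89% and 21% of the tests over all genes. In 1 fit over all 34 libraries these numbers were 14 and 20, and with an absolute log2 fold change above 1 also asked for they were 5 and 12. Without female Control hypoxia replicate 1 the female number was 14. In the main fits all 9 of the females lay in comparisons with Cav1-KO hypoxia. Hypoxia against normoxia in Cav1-KO females called 7 genes (38.2% of genes tested), Sox17 and Klf2 higher and Tbx4, Aqp1, Kcna5, Atp13a3 and Ggcx lower, of which Kcna5 passed the filter through normoxia alone (2 of 2 libraries against 0 of 3, adjusted p = 0.0303, and 0.0184 without a filter). Cav1-RC against Cav1-KO females in hypoxia called Aqp1 higher and Sox17 lower (20.8%). In the female normoxia comparisons, in which the Cav1-KO and Cav1-RC groups had 2 libraries each, 0 of the 10 were called, with 0.122% of genes called for Cav1-KO against Control, 0.1% for Cav1-RC against Cav1-KO and 0.137% for Cav1-RC against Control. No member was called either in the other female comparisons, for Cav1-KO and Cav1-RC against Control in hypoxia (0.808% and 0.849% of genes) and for hypoxia in Control and Cav1-RC (0.0175% and 0.0285%).

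In males, Cav1-RC against Control in hypoxia called 5 of the 10 genes (37% of genes tested). Abcc8 rose by 1.73, Aqp1 by 1.19, Kcna5 by 1.18 and Atp13a3 by 0.76, and Sox17 fell by 1.09, with adjusted p of 0.00471, 0.000724, 0.021, 0.00126 and 0.00106. All 3 male Control hypoxia animals were listed and no Cav1-RC hypoxia animal was, so listing and genotype cannot be told apart. In male Control lungs hypoxia raised Sox17 by 1.35 and lowered Atp13a3 by 0.94 (16% of genes called), again with all hypoxia and no normoxia animals listed. In normoxia, where no male was listed, Kcnk3, Aqp1 and Sox17 rose in Cav1-KO against Control males (11.4% called), Kcnk3 rose in Cav1-RC against Control males (4.2% called, adjusted p = 0.0103), and in Cav1-RC against Cav1-KO males Klf2 rose by 0.86 and Sox17 fell by 0.46 (12.5% called). Hypoxia lowered Tbx4 by 0.42 in Cav1-RC males (7.89% called, adjusted p = 0.0172), also a comparison without listed animals. Male Cav1-RC normoxia replicates 1 and 2 and male Control hypoxia replicate 2 were the libraries whose sex genes went against the label. Without all 3, male Cav1-RC normoxia keeps 1 library, so its spread cannot be measured and the number called in males is not given. With the listing term the number called in males was 9, with 3.86% of tests over all genes called. The other male comparisons with Cav1-KO hypoxia called 8 of 9 genes tested for hypoxia against normoxia (55.1%) and 4 of 10 for Cav1-RC against Cav1-KO (44.5%). Male Cav1-KO against Control in hypoxia, all 6 animals listed, called Atp13a3 higher by 0.68 (1.6% called, adjusted p = 0.0254).

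A difference between the sexes was called by edgeR in 0 of 90 tests (0% of tests over all genes) of the female minus male fold change. Without the listed female Control hypoxia replicate 1 the number was 11, so the 0 rests on that library. With all libraries there were 12 at an unadjusted p under 0.05, against 9.41% of all tests over genes, and DESeq2 called 2. Atp13a3 had the 2 smallest unadjusted p, for Cav1-RC against Control in hypoxia at -1.07 (SE 0.225, adjusted p = 0.182) and for Cav1-KO against Control in hypoxia at -0.78 (SE 0.190, adjusted p = 0.257). Both use the Control hypoxia groups, in which 1 of 3 females and 3 of 3 males were listed.

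Listing itself, tested in 1 fit over all 34 libraries with the 12 group means, was called for 5 of the 10 genes, with 45.8% of 19870 genes called. Aqp1 was lower in listed animals by -1.13 (SE 0.199, adjusted p = 6.42e-05), Abcc8 by -1.11 (SE 0.426, adjusted p = 0.0349), Atp13a3 by -0.55 (SE 0.132, adjusted p = 0.00137) and Ggcx by -0.39 (SE 0.0838, adjusted p = 0.000445). Sox17 was higher by 0.66 (SE 0.151, adjusted p = 0.000862). The term rests on the 3 female groups that hold both kinds of animal, with 3 listed and 5 unlisted libraries.

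In these 3 groups the listed animal lay above the unlisted animals for Sox17 and below them for Aqp1, Abcc8, Atp13a3 and Ggcx each time. In female Control hypoxia Aqp1 was at 572 CPM in the listed animal and at 1342 and 1349 CPM in the unlisted animals. In female Control normoxia Atp13a3 was at 155 CPM against 325 and 335 CPM. Kcnk3, Kcna5, Klf2, Eif2ak4 and Tbx4 were not called for listing, and Kcnk3 in normoxia was at 0.91 without the term and 0.92 with it in Cav1-KO against Control. Why listed animals differed was not tested.

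**Figure D3:**
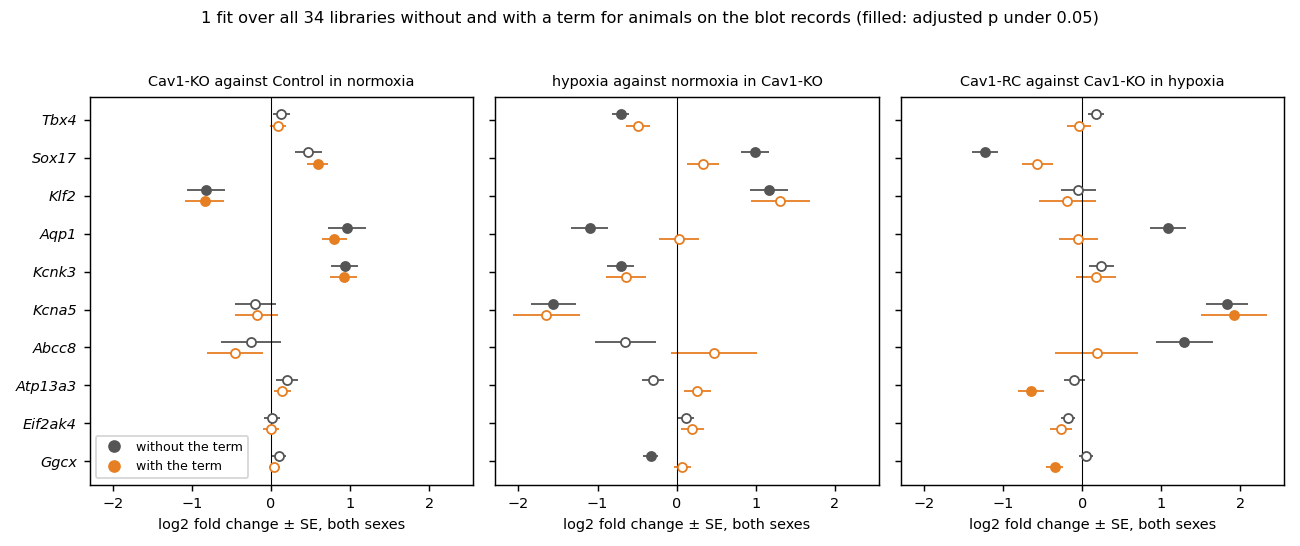
Log2 fold changes of the 10 genes in 3 comparisons with bars of 1 standard error, from 1 fit over all 34 libraries without (grey) and with (orange) a term for animals in the blot source data, filled where the adjusted p was under 0.05. In Cav1-KO hypoxia against normoxia Aqp1 moved to 0.03 and Klf2 to 1.31 with the term, and no point is filled.

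Genes that work with the 10 were taken from fixed lists and are given for the comparisons named. Of 12 flow response genes around Klf2, 4 rose and 4 fell in Cav1-KO hypoxia against normoxia, with a median of 0.005 against 0.025 over all genes. Nos3, the endothelial nitric oxide synthase and a known Klf2 target, rose from 39.1 to 46.5 CPM in normoxia to 91.7 to 124 CPM in hypoxia (log2 fold change 1.23, SE 0.0845, adjusted p = 5.44e-07). Piezo1, a flow-sensing channel, fell by 1.12 (SE 0.0808, adjusted p = 7.1e-07). Edn1, endothelin-1, was at 145 to 256 CPM in Cav1-RC and 28.2 to 37.3 CPM in Cav1-KO normoxia, higher by 2.75 (SE 0.123, adjusted p = 7.72e-07), with 1 of the 12 genes called in that comparison, against 9.38% of all genes.

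Of 6 T-box and SoxF relatives of Tbx4 and Sox17, 1 rose and 3 fell in Cav1-KO hypoxia against normoxia, with a median of -0.31. Tbx5, the partner of Tbx4 in lung budding, fell by 0.63 (SE 0.114, adjusted p = 0.00048) and Fgf10, their growth factor target, by 0.48 (adjusted p = 0.00141). Sox18, a SoxF gene like Sox17, was lower in Cav1-RC than in Cav1-KO hypoxia by 0.84 (SE 0.183, adjusted p = 0.00217), at 93.9 to 207 against 165 to 329.1 CPM.

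Of 15 potassium channel and KATP subunit genes, 0 rose and 6 fell in Cav1-KO hypoxia against normoxia (median -0.42), and 6 were higher and 0 lower in Cav1-RC than in Cav1-KO hypoxia (median 0.33, against -0.004 over all genes), where 26.4% of all genes were higher and 26.2% lower. Kcns3, a silent subunit of Kv channels, fell by 1.82 (SE 0.159, adjusted p = 2.5e-06), and Kcna3, a Kv channel of lymphocytes among other cells, fell by 2.24 (SE 0.310, adjusted p = 6.85e-05). The accessory subunit Kcnab2 was higher in Cav1-RC than in Cav1-KO hypoxia by 1.46 (SE 0.168, adjusted p = 3.25e-05). The leukocyte list summed to 227.5 to 627 CPM in Cav1-RC hypoxia, 176 to 370 CPM in Cav1-KO hypoxia and 138 to 251 CPM in Cav1-KO normoxia. Its part in either comparison was not tested.

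Of the other 7 aquaporins tested, 2 rose and 1 fell in Cav1-KO hypoxia against normoxia, while Aqp1 fell. Aqp4 rose by 1.61 (SE 0.310, adjusted p = 0.000791) and Aqp2 by 1.11 (SE 0.306, adjusted p = 0.00781). Aqp2 was at 0.275 to 0.4985 CPM in normoxia and 0.573 to 1.27 CPM in hypoxia. The filter on low counts asked for 0.552 CPM, without TMM factors, which lies between these ranges. Aqp2 thus entered the test through hypoxia, where it was high. Aqp3 was higher in Cav1-RC than in Cav1-KO hypoxia by 2.22 (SE 0.514, adjusted p = 0.00308).

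Of 13 P5 ATPase and polyamine genes tested beside Atp13a3, 7 rose and 3 fell in Cav1-KO hypoxia against normoxia. The lysosomal polyamine exporter Atp13a2 fell by 0.80 (SE 0.0760, adjusted p = 4.1e-06) and spermine synthase, Sms, rose by 0.62 (SE 0.0595, adjusted p = 4.42e-06). Odc1, the first enzyme of polyamine synthesis, was at 128.5 to 162 CPM in Cav1-RC and 39.6 to 68.6 CPM in Cav1-KO hypoxia, higher by 1.40 (SE 0.122, adjusted p = 5.66e-06), with 3 genes of the list higher and 6 lower there, against the same 26.4% and 26.2% of all genes.

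Around Eif2ak4, which was itself not called, 6 of 13 genes of the eIF2 alpha kinases and the amino acid response rose and 6 fell in Cav1-KO hypoxia against normoxia, with a median of 0.086. Atf4, the factor translated when eIF2 alpha is phosphorylated, rose by 0.89 (SE 0.0862, adjusted p = 4.85e-06), and Impact, an inhibitor of GCN2, by 0.72 (SE 0.0721, adjusted p = 5.88e-06). Chac1, a target of Atf4, fell by 1.47 (SE 0.180, adjusted p = 2.69e-05).

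Of 11 genes tested of the vitamin K cycle and of carboxylated proteins, which Ggcx serves, 1 rose and 6 fell in Cav1-KO hypoxia against normoxia (median -0.25). Prrg3, a membrane protein with a carboxylated domain, fell by 0.84 (SE 0.0936, adjusted p = 1.3e-05), and its relative Prrg2 rose by 0.44 (SE 0.0721, adjusted p = 0.000245). Aifm2, a vitamin K reductase, was higher in Cav1-RC than in Cav1-KO hypoxia by 0.61 (SE 0.0956, adjusted p = 0.000244). For comparison, of 7 risk genes tested of the BMP pathway and caveolae, 0 rose and 5 fell in Cav1-KO hypoxia against normoxia, among them the receptor Acvrl1 by 0.78 (SE 0.0883, adjusted p = 1.52e-05) and Smad9 by 1.14 (SE 0.134, adjusted p = 2.09e-05). These counts in Cav1-KO hypoxia are all subject to the listing of its animals, and 61.7% of all genes were called there.

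The genes whose levels were most like those of the 10 were found by Pearson's r of log2 CPM over the 34 libraries, which share groups and listing, and r over the 22 unlisted libraries is given beside it. Klf2 was most like Klf4, the related flow-induced factor (r = 0.78, and 0.912 unlisted), then Pim3 (0.777 and 0.818) and Csrnp1 (0.762 and 0.846). Klf4 rose with Klf2 in Cav1-KO hypoxia, by 0.66 (SE 0.141, adjusted p = 0.0015). Aqp1 was most like Lima1 (0.968 and 0.959), She (0.962 and 0.954) and Zmat3 (0.951 and 0.927), the closest likeness of the 10. Tbx4 was most like Reck (0.917 and 0.924), Tspan18 (0.909 and 0.896) and Acvrl1 (0.903 and 0.812).

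Sox17 was most like Tmem44 (0.931 and 0.692), Pkn3 (0.931 and 0.77) and Nlgn2 (0.931 and 0.622), all weaker among unlisted animals. Kcnk3 was most like Rps6ka1 (0.751 and 0.662), Dpysl5 (0.746 and 0.69) and Cdh13 (0.746 and 0.881). Atp13a3 was most like Hk2 (0.855 and 0.665), Eif2ak4 most like Cntrl (0.687 and 0.622) and Ggcx most like Colec12 (0.835 and 0.844). Between the 10 themselves, the highest r was that of Ggcx and Tbx4 (0.627 and 0.733). Kcnk3 and Sox17 had r of -0.159 over all 34 and 0.789 over the 22 unlisted libraries.

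The scarce channel genes were most like genes of other tissues. Abcc8 was most like Mylk3 (0.85 and 0.804), Trim63 (0.836 and 0.649) and Mybpc3 (0.827 and 0.659), 3 genes of heart or striated muscle. Its r with the summed cardiac list was 0.79 over 34 and 0.52 over 22 libraries, and that with the neuroendocrine list was -0.1 and 0.55. Kcna5 was most like Adipoq, a fat cell hormone (0.783 and 0.516), and Slc2a4, the insulin-regulated glucose transporter of fat and muscle (0.767 and 0.656). Adipoq was higher in Cav1-RC than in Cav1-KO hypoxia by 2.80 (SE 0.705, adjusted p = 0.00516), the comparison in which Kcna5 rose by 1.84. Of the Cav1-KO hypoxia libraries, 5 held 0.127 to 0.5676 CPM of Adipoq, and female replicate 3 held 7.998 CPM, inside the Cav1-RC range of 3.46 to 9.405 CPM. How much heart or fat tissue entered each library was not tested.

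**Figure D4:**
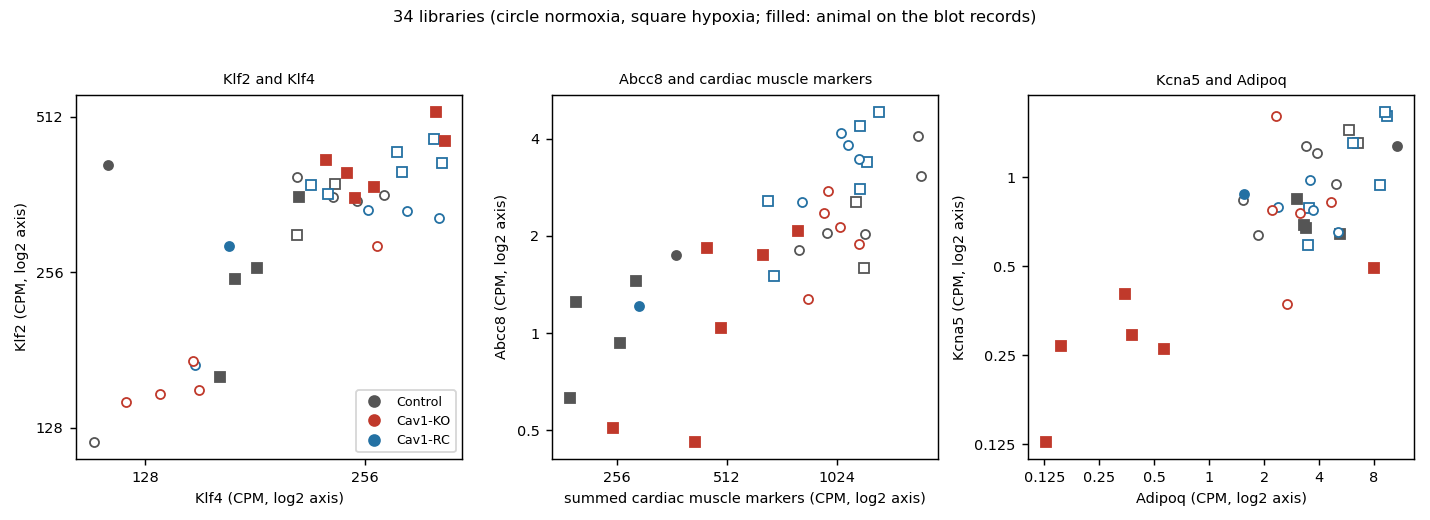
Level of 3 of the 10 genes against another measure in each of the 34 libraries on log scales, with Klf2 against Klf4, Abcc8 against the summed cardiac markers and Kcna5 against Adipoq. Points are colored by genotype, and r is 0.78, 0.79 and 0.783 in turn.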

How the data were processed

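Whole-lung RNA-seq tables of 35 libraries were used, of which 34 have a group in the labels. The library of uncertain group entered no comparison. The authors aligned paired reads to mm10 with HISAT2 2.0.5 and deposited raw counts per gene from featureCounts 1.5.0-p3, per the submitters' processing notes, and they also deposited FPKM, which was used only to set levels of genes side by side. Counting used default settings, which take no account of strand.

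Counts were tested with edgeR 4.0.16 in R 4.3.3 (TMM factors, filterByExpr, glmQLFit and glmQLFTest) over all genes, with Benjamini-Hochberg adjustment over all genes tested and a threshold of 0.05. Fits used the groups of 1 comparison, in females, in males and with 4 group means whose 2 sex effects were averaged or subtracted. The genotype by oxygen contrast used 8 group means. The study's own tests were DESeq2 with an absolute log2 fold change above 1, so these settings, DESeq2 1.42.0, DESeq2 size factors, no filter, a replicate block, 1 fit over all libraries, the listing term, unlisted animals only, leaving out libraries whose sex genes go against the label and leaving out each library in turn were tried. Scripts were tested on simulated data.

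The rule for named genes took all 10 members in every comparison (the text gives some by value and the rest by counts), with up to 3 genes of smallest adjusted p per pathway list and the 3 genes most like each member, except genes that are not reported here. Members and lists were chosen with earlier results of these data known. Summed markers of endothelial, erythroid, smooth muscle, cardiac muscle, fibroblast, neuroendocrine, lung epithelial and leukocyte cells were computed. Totals were 12425535 to 33343006 counts a library, so counting error is small except for Kcna5 and Abcc8. The study states that each library is 1 mouse, and p-values measure the spread between these mice. No pair of libraries in 1 group agreed within sampling noise. The labels give 1 date for all 35 libraries and name no batch. Library names carry a suffix for both female Cav1-KO normoxia libraries and for male replicate 3 of Cav1-KO and of Cav1-RC in normoxia. Female Control normoxia replicate 1 has another prefix. What these name parts stand for is not stated in the labels, and a batch was not tested. Reads were not analysed here.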

Additional observations from a re-analysis of the deposited data

Results flagged for a closer look

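Of 60 sets of 4 to 10 libraries of 1 gene, genotype and oxygen level, 8 held a library far from the others by Dixon's criterion, which chance gives in about 1 of 20 sets. Aqp1 was high at 1529 CPM in female Cav1-RC hypoxia replicate 3 and low at 405.5 CPM in the listed female Cav1-RC normoxia replicate 1. Klf2 was low at 120.1 CPM in male Control normoxia replicate 1 and high at 288.2 CPM in female Cav1-KO normoxia replicate 2. Atp13a3 was low at 155.3 CPM in the listed female Control normoxia replicate 1, and Eif2ak4 was high at 33.63 CPM in male Control normoxia replicate 1. Ggcx stood apart at 42.31 CPM in male Cav1-KO hypoxia replicate 3 and at 61.04 CPM in female Cav1-KO normoxia replicate 1, the latter within a group of very narrow range.

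A genotype difference that itself differed between hypoxia and normoxia was found in 8 tests. Between Cav1-KO and Control the change of the log2 difference was -1.42 for Aqp1, -1.36 for Kcna5, 1.37 for Klf2 and -0.43 for Tbx4. Between Cav1-RC and Cav1-KO it was 1.44 for Aqp1, 1.99 for Kcna5, -0.70 for Klf2 and -1 for Sox17.

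The library of uncertain genotype and oxygen level, with 30930450 counts, held Sox17 at 330.9 CPM, above the highest Control library at 281.4 CPM, and Kcnk3 at 52.09 CPM, above the highest Control library at 40.98 CPM. Its Kcna5 level of 0.3874 CPM lay below the lowest Control library at 0.6361 CPM. Its Cav1 level was 4.825 CPM and its Aqp1 level 486.5 CPM, and its animal number is in the blot source data. Its CPM and those of the Control libraries and of all 34 libraries beside it were scaled together. Scaled without it, Cav1-KO normoxia libraries held 115 to 149.9 CPM of Sox17 and 997 to 1233 CPM of Aqp1. Cav1-KO hypoxia libraries held 188 to 308 CPM of Sox17 and 377 to 653.5 CPM of Aqp1. Which group the uncertain library belongs to was not tested.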

How the results depend on the processing

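With the study's thresholds the number of the 10 genes called over 9 comparisons was 5 in females (main value 9) and 12 in males (27), 0 for Cav1-KO and 0 for Cav1-RC against Control in normoxia (3 and 1) and 3 for hypoxia in Cav1-KO (8). With the listing term it was 9 in males, 3 for Cav1-KO against Control in hypoxia (1), 2 for Cav1-RC against Control in normoxia, 3, 0 and 2 for hypoxia in Control (0), Cav1-KO (8) and Cav1-RC (0), and 2 for genotype by oxygen (8). Among calls, that term alone turned directions, of Aqp1 to -0.052 and Ggcx to -0.35 for Cav1-RC against Cav1-KO in hypoxia and of Aqp1, Atp13a3 and Ggcx to 0.032, 0.26 and 0.069 for hypoxia in Cav1-KO. In 1 fit over all libraries without the term, 14 were called in females, 4 for Cav1-KO and 3 for Cav1-RC against Control in hypoxia (1) and 1 for hypoxia in Control. DESeq2 called 4 and 5 in those comparisons of hypoxia, 2 for Cav1-RC against Cav1-KO in normoxia (0), 1 for hypoxia in Control and 2 for the sex difference (0). Without a filter on low counts the numbers were 3, 1, 2, 1 and 1 for Cav1-KO against Control in hypoxia, Cav1-RC against Cav1-KO in normoxia, Cav1-RC against Control in hypoxia, hypoxia in Control and the sex difference. Without the libraries whose sex genes go against the label, Cav1-RC against Control in hypoxia called 0. Among unlisted animals, which could be fitted in 4 comparisons with both sexes and not in the others, Cav1-RC against Cav1-KO in normoxia called 2 and hypoxia in Cav1-RC 1. DESeq2 size factors moved no number by over 1.5 times.

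Leaving out 1 library gave 2 to 14 in females (14 without female Control hypoxia replicate 1, and 2, 4 and 4 without female Cav1-KO normoxia replicates 1 and 2 and hypoxia replicate 2), and 22 to 31 in males. It gave 1 to 4 for Cav1-KO against Control in normoxia (1 without female Cav1-KO normoxia replicate 1) and 1 to 7 in hypoxia. For Cav1-RC against Cav1-KO it gave 0 to 6 in normoxia (6 and 2 without female Cav1-RC replicates 2 and 1, and 1 each without female Cav1-KO replicate 2 and male Cav1-RC replicate 1) and 4 throughout in hypoxia. For Cav1-RC against Control in hypoxia it gave 0 to 2 (2 without female Control replicate 1 or 3, and 0 without male Control replicate 1 or 2, female Cav1-RC replicate 1 or 3 or any male Cav1-RC library). It gave 0 to 2 for hypoxia in Control (2 without female normoxia replicate 1, 1 without female hypoxia replicate 1), 0 to 1 for hypoxia in Cav1-RC (1 without female normoxia replicate 1 or 2), 0 to 11 for the sex difference (11 without female Control hypoxia replicate 1, 3 without female Cav1-RC normoxia replicate 2) and 4 to 11 for genotype by oxygen (4 without female Cav1-KO normoxia replicate 1).

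Replicate numbers did not pair the libraries. Deviations of same-numbered libraries had a mean r of 0.015, with 32 of 177 pairs above 0.1, and 15 of 34 libraries correlated best with their own number. With the replicate block Cav1-KO against Control in hypoxia called 2 genes, Klf2 being added at 0.58 (adjusted p = 0.0418), and Cav1-RC against Control in hypoxia called 0. Kcna5, at 2 to 32 counts, and Abcc8, at 8 to 78, are limited by depth.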
